A study of Mus musculus with 5 samples.

Results

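The annexins are a family of calcium-dependent proteins that bind membranes, and 9 of their genes were followed here: Anxa1, Anxa2, Anxa3, Anxa4, Anxa5, Anxa6, Anxa7, Anxa8 and Anxa11. They were picked by gene symbol in the array's platform annotation and make up 9 of the 16917 genes tested. The samples were 5 mouse gliomas, 3 expressing mutant IDH1 (mutIDH1) and 2 expressing wild-type IDH1 (wtIDH1), each read on 1 Illumina BeadArray. All tumours arose in Ntva_Ink4a/Arf-/- mice of a mixed FVB/N, C57BL6, BALB/C and 129 background, which carry the avian virus receptor tva (Ntva names its nestin promoter) and lack the Ink4a/Arf tumour suppressors. Into these mice went DF1 chicken fibroblasts releasing PDGFa virus, mixed with DF1 cells releasing shp53 virus coupled either to mutant IDH1 or, for the controls, to wild-type IDH1. The wtIDH1 group is therefore a group with delivered IDH1, not one without it, and both groups share PDGFa, shp53 and the Ink4a/Arf deletion. Tumours were taken at signs of illness rather than at a set time, ages are not given in the sources used here, and the 5 tumour codes were taken as separate animals. RNA came from whole tumour tissue, in which fewer cells of a type and less RNA per cell cannot be told apart.

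Annexins share a core of repeats that binds acidic phospholipids, phosphatidylserine above all, when calcium rises, and they differ in their N-terminal tails. They are known for resealing torn membranes, for vesicle traffic and for tethering partner proteins at the cell surface. In brain tumours annexin A2 is known from tumour cells, vessels and invading macrophages, and annexin A1 from astrocytes and leukocytes.

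Values are log2 signals as the authors deposited them, already on 1 common distribution for all arrays. A level of 7.51 was estimated as background, and between 18921 and 18933 of the 45281 probes lay above it on each array. The mutIDH1 samples correlated with each other at r between 0.988 and 0.994 over the tested genes, the wtIDH1 samples at 0.971. The controls were thus the more unlike group. Mixed pairs, a mutIDH1 with a wtIDH1 sample, gave values of 0.969 up to 0.980. The value for the wtIDH1 pair lay near the lower end of that range, so the controls were no more alike than most mixed pairs. Oligodendrocyte precursor markers, typical of PDGF-driven glioma, lay above background in every sample, from Olig1 (14.40 to 14.88), Pdgfra (13.67 to 14.29) and Sox10 (13.49 to 13.71) down to Sox2 (9.02 to 10.10) and Olig2 (8.53 to 9.54). With 5 arrays, precision is limited throughout.

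Annexin A2 was the 1 annexin that fell in mutIDH1 gliomas by the test, to 0.353 times its wtIDH1 signal. By limma, at a Benjamini-Hochberg adjusted p under 0.05 over the whole table, 1 of the 9 annexins was lower and 0 were higher, against 0.899% and 0.449% of all genes. At an unadjusted p under 0.05, 6 of the 9 (Anxa1, Anxa2, Anxa3, Anxa4, Anxa5 and Anxa11) were lower and 0 higher, where 7.25% of all genes were lower and 7.11% higher. Every mutIDH1 sample lay below both wtIDH1 samples for 7 of the 9, a pattern that 14.0% of all genes showed, and for 0 of the 9 did every one lie above, as for 16.7% of all genes. The difference was negative for 8 of the 9, as for 45.6% of all genes. The median difference of the annexins, mutIDH1 minus wtIDH1, was -0.48 on the log2 scale, and that of all genes tested was 0.014. All 9 passed the filter on dim probes, which uses the mean over all 5 samples, and 6 had a main probe above background in every sample.

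**Figure D1:**
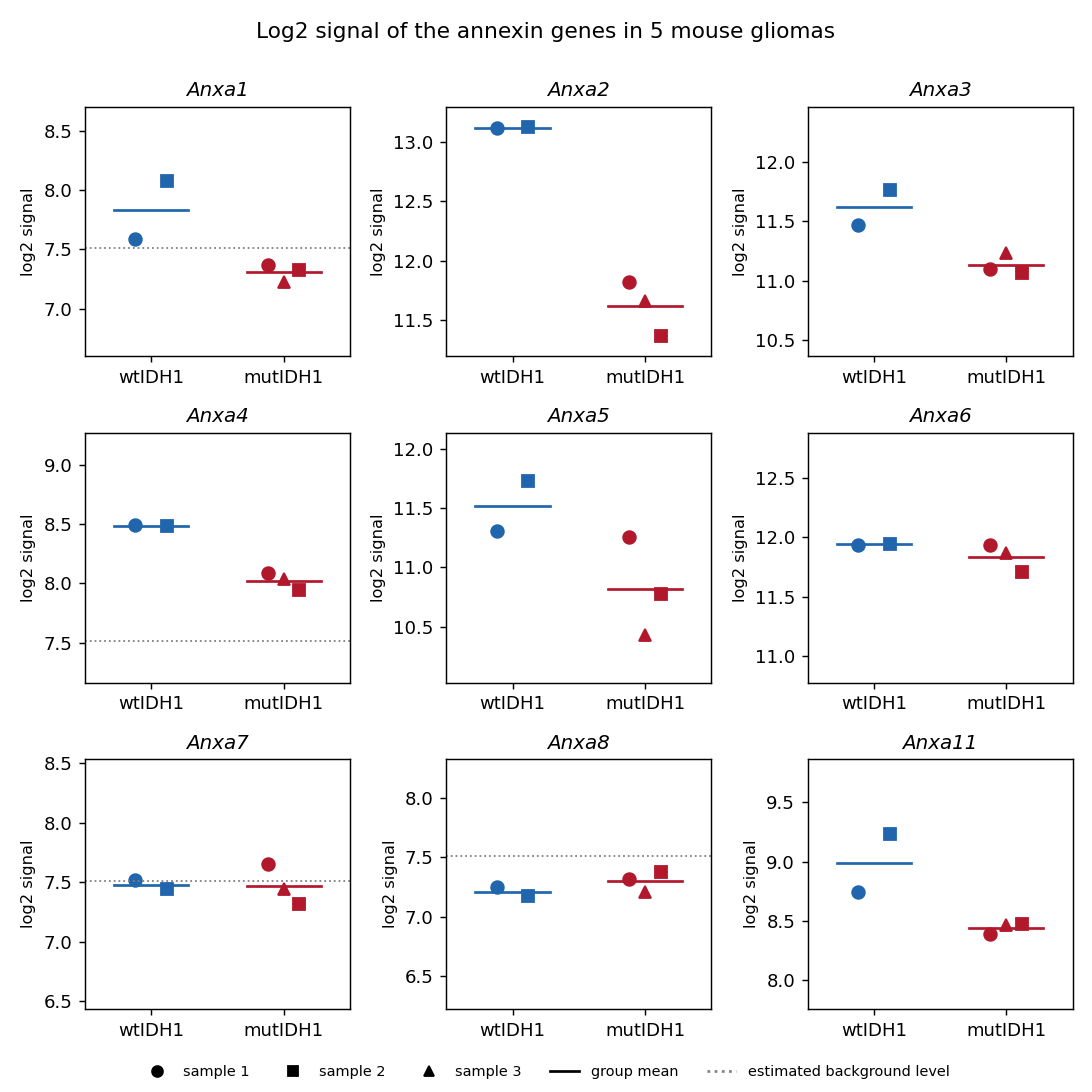
Log2 signal (y axis, 1 probe per gene) of the 9 annexins in the 2 wtIDH1 and 3 mutIDH1 gliomas; each point is a sample, its shape gives the sample number, and the horizontal bar is the group mean. All panels span the same height in log2 units, and the dotted line is the background level of 7.51. Anxa2 shows the widest gap between the groups, Anxa6 almost none, and Anxa7 and Anxa8 overlap.

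Anxa2 encodes annexin A2, which pairs with S100a10 at the cell surface, where the complex binds plasminogen and its activator. Its log2 signal was 13.12 in wtIDH1 sample 1 and 13.12 in wtIDH1 sample 2, and 11.82, 11.37 and 11.66 in mutIDH1 samples 1, 2 and 3. The groups were thus far apart, with 1.29 between the lowest wtIDH1 and the highest mutIDH1 sample, while the wtIDH1 samples differed by 0.0091 and the mutIDH1 samples spanned 0.45. Anxa2 fell from 13.12 ± 0.0064 (SD, n = 2) to 11.62 ± 0.23 (SD, n = 3), a difference of -1.50 ± 0.14 (log2, SE; 95% interval for this gene alone -1.86 to -1.15) with a limma adjusted p of 0.0227. On the linear scale the wtIDH1 signal was 2.83-fold that of mutIDH1, and 53 of the tested genes had a smaller p. The size held but the call did not when any mutIDH1 sample was left out: the difference was -1.60, -1.38 and -1.52 without mutIDH1 sample 1, 2 and 3, and the adjusted p 0.0502, 0.119 and 0.145. With the sex of the tumour as a second term the difference was -1.47 and the adjusted p 0.0557. Without wtIDH1 sample 1 or 2 it passed (adjusted p = 0.0345 and 0.0284), but the spread then came from the mutIDH1 samples alone.

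A second, dim Anxa2 probe read 7.74 and 7.86 in the wtIDH1 samples and 7.36, 7.49 and 7.48 in the mutIDH1 samples. It ran the same way without overlap, but lay above background in the wtIDH1 samples only, and as its own row it did not pass (-0.36 ± 0.07, adjusted p = 0.130). The background level bounds what this probe can show, and the mean of both probes, which includes it, gave -0.93 with an adjusted p of 0.0172.

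Upstream sequence is shown for Anxa2, the annexin that passed the test, and, for contrast in motif content, for Anxa1 and for Anxa5, whose difference was the next largest in size. The set of promoter windows used (RefSeq, GRCm38.p6) held 7 of the 9 members, all but Anxa3 and Anxa6, with more than 1 start for Anxa4 and Anxa7. Each run is the 250 bases before the start, 5′ to 3′ along the gene, from chr9:69453433-69453682 on the plus strand for Anxa2, chr19:20390672-20390921 on the minus strand for Anxa1 and chr3:36475888-36476137 on the minus strand for Anxa5. Capitals mark matches to the motifs searched.
Anxa2: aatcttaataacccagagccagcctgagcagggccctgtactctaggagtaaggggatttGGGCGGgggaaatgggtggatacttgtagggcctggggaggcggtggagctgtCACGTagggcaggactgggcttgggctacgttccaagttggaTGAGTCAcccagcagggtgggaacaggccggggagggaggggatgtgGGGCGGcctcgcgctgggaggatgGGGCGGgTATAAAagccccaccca
Anxa1: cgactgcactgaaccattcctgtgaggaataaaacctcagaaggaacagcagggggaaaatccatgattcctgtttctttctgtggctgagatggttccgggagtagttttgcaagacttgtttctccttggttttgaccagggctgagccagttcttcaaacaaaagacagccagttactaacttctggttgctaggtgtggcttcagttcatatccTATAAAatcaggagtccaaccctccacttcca
Anxa5: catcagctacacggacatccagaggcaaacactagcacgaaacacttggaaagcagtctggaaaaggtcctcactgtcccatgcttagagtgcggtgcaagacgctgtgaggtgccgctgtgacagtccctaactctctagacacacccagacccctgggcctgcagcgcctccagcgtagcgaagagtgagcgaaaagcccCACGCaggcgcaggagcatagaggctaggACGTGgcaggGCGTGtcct
The motifs searched were a TATA box (TATAAA, in the direction of the gene) and, on both strands, AP-1 (TGANTCA), the hypoxia response core (ACGTG or GCGTG) and the GC box (GGGCGG). The Anxa2 window held a TATA box whose first base lies 17 bases before the annotated start, an AP-1 match at 95 (TGAGTCA), 1 hypoxia core at 137 on the opposite strand and 3 GC boxes at 24, 48 and 190, none of which overlap. The Anxa1 window held a TATA box at 32 and no other match. That of Anxa5 held no TATA box and 3 hypoxia cores, at 9, 19 and 48. Among 32851 promoter windows of the same length, 7.6% held the TATA letters, 6.7% AP-1, 38.6% a hypoxia core and 32.7% a GC box. CG dinucleotides, the sites of DNA methylation, numbered 9 for Anxa2, 2 for Anxa1 and 13 for Anxa5, against a median of 6. These are letter matches, and neither binding nor methylation was measured.

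Genes of the same cell-surface and calcium machinery as annexin A2 gave values on the same side for several S100 partners, without a call. S100a10, its direct partner, read 10.85 and 10.67 in the wtIDH1 samples and 9.33, 9.78 and 10.17 in the mutIDH1 samples. The groups did not overlap, the mutIDH1 samples spread widely, and the difference of -1.00 ± 0.24 did not pass (adjusted p = 0.149). S100a11, a partner of annexins A1 and A2, read 12.21 and 12.13 against 10.50, 10.95 and 11.25, a difference of -1.27 ± 0.22 (adjusted p = 0.0746). It passed with trended and robust moderation (adjusted p = 0.0157) and with normexp (adjusted p = 0.0488). It missed when single mutIDH1 samples were left out (limma adjusted p from 0.0916 to 0.280). Sex as a second term (0.0950) and cyclic loess (0.0711) gave no call for it either. S100a6, which binds several annexins, stood at -0.62 ± 0.16 (adjusted p = 0.162) and S100b, an astrocyte protein, at -0.28 ± 0.10 (adjusted p = 0.259). Of 8 measured S100 and EF-hand partners 0 passed by limma in either direction. At an unadjusted p under 0.05, 4 were lower and 0 higher, against 7.25% and 7.11% of all genes. The median difference of the list was -0.25. Sri and Pef1, calcium-binding proteins of the penta-EF-hand family, were at -0.13 ± 0.08 and 0.13 ± 0.10. S100a1, bright in every sample, stood at -0.21 ± 0.24 with overlapping groups. S100a4 was at or under background in every sample (-0.11 ± 0.10).

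The plasminogen system that annexin A2 helps to assemble showed no call. Plat, tissue plasminogen activator, was bright in every sample (11.58 and 11.24 in wtIDH1, 11.51, 11.60 and 11.61 in mutIDH1) with overlapping groups and a difference of 0.16 ± 0.12 (95% interval -0.14 to 0.46). Plau, the urokinase activator, stood at -0.26 ± 0.07 (adjusted p = 0.192), its receptor Plaur at -0.22 ± 0.16 (adjusted p = 0.643) and Plgrkt, a plasminogen receptor, at 0.11 ± 0.14. Serpinf2, the plasmin inhibitor, stood at 0.31 ± 0.10 (adjusted p = 0.248), under background in both wtIDH1 samples and in mutIDH1 samples 2 and 3. Plg itself was at or under background in every sample. Over 6 measured genes 0 passed by limma, and the median was 0.058. At an unadjusted p under 0.05, Plau was lower and Serpinf2 higher, against 7.25% and 7.11% of all genes.

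Anxa1 encodes annexin A1, an anti-inflammatory protein that signals through formyl peptide receptors and restrains phospholipase A2. Its single probe read 7.58 and 8.08 in the wtIDH1 samples and 7.37, 7.32 and 7.22 in the mutIDH1 samples. All 3 mutIDH1 values lay under background and both wtIDH1 values above it, so the wtIDH1 mean (7.83, against a measured 7.31) was at least 1.25-fold higher, a bound set against the background level. The fitted difference of -0.52 ± 0.16 did not pass (adjusted p = 0.211). It rested much on wtIDH1 sample 2: without that sample it was -0.28, and without wtIDH1 sample 1 it was -0.77. Each of these fits leaves 1 wtIDH1 sample and holds no spread between wtIDH1 tumours. After normexp background correction the difference was -0.89 (adjusted p = 0.144).

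In the list of annexin A1 receptors and arachidonate enzymes, 2 of 5 measured genes fell and 0 rose (median 0.027), against 0.899% and 0.449% of all genes. The other 3, Pla2g4a, Alox5 and Ptgs2, were at or under background in every sample. Fpr2, a formyl peptide receptor that binds annexin A1, read 8.14 and 8.03 in the wtIDH1 samples and 7.55, 7.45 and 7.37 in the mutIDH1 samples. Fpr2 fell by 0.63 ± 0.09 on the log2 scale (adjusted p = 0.0443), with 1 of 3 mutIDH1 samples above background; with normexp it was -0.99 (adjusted p = 0.0284). Alox5ap, the protein that presents arachidonate to 5-lipoxygenase in myeloid cells, read 10.12 and 10.03 against 9.13, 9.05 and 8.63. It fell by 1.14 ± 0.16 (adjusted p = 0.0486). Both calls sat close to the threshold. Leaving out single mutIDH1 samples gave limma adjusted p from 0.104 to 0.224 for Fpr2 and from 0.104 to 0.209 for Alox5ap, so neither passed. Without wtIDH1 sample 1 and 2 the difference was -0.57 and -0.69 for Fpr2, and -1.10 and -1.18 for Alox5ap, each with 1 wtIDH1 sample left. With sex as a second term neither passed (0.0764 and 0.0901). Fpr2 also missed with the dimmest 50% of the probes left out (0.0509), and Alox5ap missed with the mean of its probes (0.0701), with cyclic loess (0.0523) and with each probe as its own row (0.0505).

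Anxa4, a regulator of chloride conductance and exocytosis in epithelia, had the smallest p among the annexins after Anxa2. Its main probe read 8.49 and 8.48 in the wtIDH1 samples and 8.09, 7.94 and 8.04 in the mutIDH1 samples. Both groups were tight and did not overlap, and the difference of -0.46 ± 0.08 (95% interval -0.66 to -0.27) fell short of the threshold (adjusted p = 0.0666). Over all alternatives the adjusted p ran from 0.0629 to 0.455. Its second probe, also above background in every sample, stood at -0.24 ± 0.07 without overlap, and its dimmest was under background throughout.

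Anxa11, an RNA-granule and lysosome tether, read 8.75 and 9.23 in the wtIDH1 samples and 8.39, 8.48 and 8.47 in the mutIDH1 samples. The mutIDH1 samples lay within 0.085 of each other and the wtIDH1 samples 0.48 apart. The difference was -0.54 ± 0.15 and the adjusted p 0.183. Leaving out wtIDH1 sample 1 gave -0.79 and leaving out wtIDH1 sample 2 gave -0.30, each with 1 wtIDH1 sample left. Both other Anxa11 probes were under background on every array, and the mean of the probes kept gave -0.30.

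Anxa3, found in neutrophil granules and in microglia, was bright in every sample and had its probes side by side. The main probe read 11.47 and 11.76 in wtIDH1 and 11.10, 11.06 and 11.23 in mutIDH1, and the second 11.08 and 11.46 against 10.82, 10.83 and 10.97. On both probes every mutIDH1 sample lay below both wtIDH1 samples, with differences of -0.48 ± 0.11 and -0.39 ± 0.13, neither of which passed (adjusted p = 0.138 and, as its own row, 0.292). Without wtIDH1 sample 1 and 2 the main difference was -0.63 and -0.34.

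Anxa5, the phosphatidylserine binder used as a stain for dying cells, had the widest spread of the annexins within mutIDH1. It read 11.31 and 11.73 in the wtIDH1 samples and 11.25, 10.78 and 10.43 in the mutIDH1 samples. The groups were separated by only 0.053, and the mutIDH1 samples spanned 0.82. The difference of -0.70 ± 0.26 did not pass (95% interval -1.35 to -0.04, adjusted p = 0.318) and ranged from -0.91 without mutIDH1 sample 1 to -0.49 without wtIDH1 sample 2.

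Anxa6, the annexin with a doubled repeat core that binds cholesterol-rich membranes, was about level between the groups. It read 11.94 and 11.94 in the wtIDH1 samples and 11.93, 11.71 and 11.86 in the mutIDH1 samples. The groups were 0.0054 apart, and the difference was -0.11 ± 0.09 (adjusted p = 0.699). Its 95% interval ran from -0.33 to 0.12, which does not show that the groups were alike but leaves out a difference of the size seen for Anxa2. Both dimmer Anxa6 probes overlapped between the groups (-0.06 ± 0.09 and -0.07 ± 0.08).

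Anxa7 and Anxa8 gave no level to compare. Anxa7, synexin, a protein of secretory granule fusion, read 7.51 and 7.45 in wtIDH1 and 7.65, 7.32 and 7.44 in mutIDH1, around background, with a difference of -0.01 ± 0.11 whose sign changed with the sample left out. Anxa8, known from epithelia, was under background on both probes in every sample (main probe 7.25 and 7.18 against 7.32, 7.37 and 7.21, a difference of 0.09 ± 0.08). Of the remaining family, Anxa9 was under background in every sample (-0.03 ± 0.08), and all probes of Anxa10 and Anxa13 were left out as dim.

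**Figure D2:**
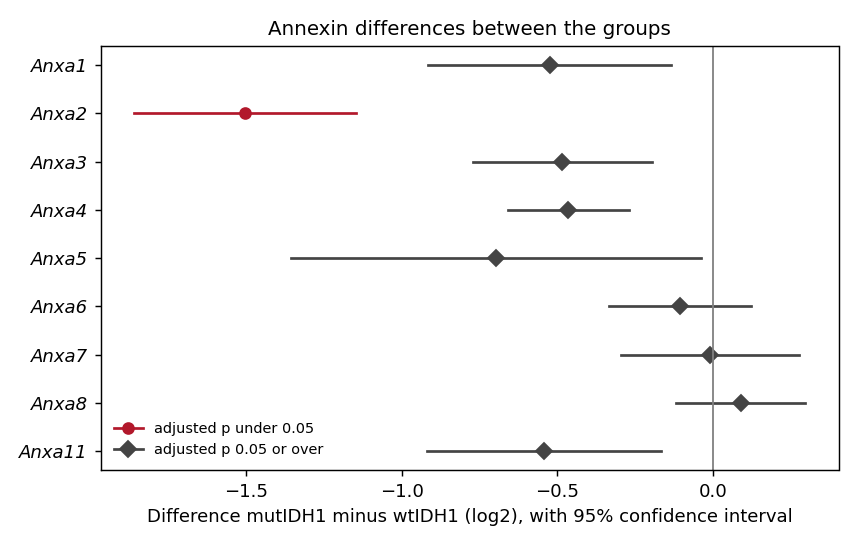
Difference in log2 signal, mutIDH1 minus wtIDH1 (x axis), for each annexin's main probe, with its 95% confidence interval from limma, not adjusted over genes. The interval of Anxa2 (-1.86 to -1.15) overlaps that of Anxa5 alone, and the intervals of Anxa6, Anxa7 and Anxa8 include 0.

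Over all 20 probes of the 9 genes, 12 read lower in every mutIDH1 sample than in both wtIDH1 samples, and of the 9 probes above background in every sample, 8 did. The exception was the middle Anxa6 probe. The share over all probes of the array was not computed, and over all genes tested, by their brightest probe, it was 14.0%. The 12 include an Anxa4 and an Anxa7 probe that were under background on every array. Probes of 1 gene share its transcripts and are not replicates. Where a gene had brighter and dimmer probes, the difference on the dimmer ones was closer to 0 for Anxa2, Anxa3, Anxa4, Anxa6 and Anxa11. Anxa7 went the other way: a dimmer probe, under background on every array, stood at -0.14 ± 0.06 without overlap (adjusted p as its own row 0.467), against -0.01 on the main probe.

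**Figure D3:**
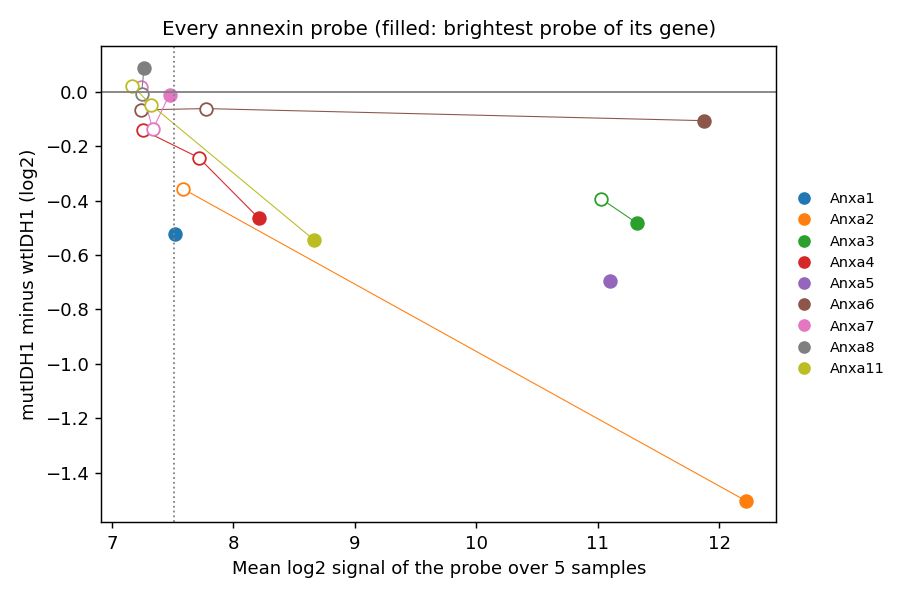
Difference in log2 signal, mutIDH1 minus wtIDH1 (y axis), against the mean log2 signal over the 5 samples (x axis) for all 20 probes of the 9 annexins. Lines join probes of 1 gene, filled points are the brightest probe of a gene, and the dotted line is the background level of 7.51. The dim Anxa2 probe stands at -0.36 and the bright one at -1.50.

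The annexins also differed in how the 2 wtIDH1 tumours compared with each other. wtIDH1 sample 2 exceeded sample 1 by 0.49 for Anxa1, 0.48 for Anxa11, 0.42 for Anxa5 and 0.29 for Anxa3, whereas the samples lay within 0.01 of each other for Anxa2, Anxa4 and Anxa6. The 2 tumours differed in some marker lists and not in others. The summed linear signal of 8 neuron markers was 2161 in wtIDH1 sample 1 and 20406 in sample 2, and that of 8 astrocyte markers 17435 and 42920, where the mutIDH1 samples ran from 7897 to 14815 and from 33652 to 47389. The sums of the 2 wtIDH1 samples were close for glioma and oligodendrocyte precursor markers (62497 and 62405) and for endothelial markers (14991 and 14740).

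Markers of cells that can carry annexins moved between the groups, and their part in the annexin differences was not tested. Of 9 endothelial markers, all measured and none under background in every sample, 3 fell, and their summed linear signal was 7969 to 9985 in mutIDH1 and 14740 to 14991 in wtIDH1. Mural and fibroblast markers summed to 5588 to 5820 and 10964 to 12246, with 4 of 10 lower and Myh11 at or under background throughout. The difference was negative for 7 of the 10. Rgs5 (0.09 ± 0.31) and Cspg4 (0.20 ± 0.14), both bright, went the other way with overlapping groups. For monocytes and macrophages, with 6 of 9 markers measured, the sums were 1593 to 2725 and 6960 to 9854, with 4 of 6 lower and Itga4 at or under background throughout. Neutrophil markers (9 of 10 measured) summed to 1496 to 1542 and 2230 to 2597. Of these 2 were lower, S100a8 and S100a9, while Cxcr2 and Elane lay at or under background throughout. Csf3r, above background in every sample, stood at -0.13 ± 0.08 (limma adjusted p = 0.605) and Mpo at 0.03 ± 0.14. The difference was negative for 7 of the 9 neutrophil markers. Microglia markers (7 of 8 measured) summed to 4395 to 5167 and 5631 to 7577 with 0 calls by limma; the median difference was 0.12, and the 2 with an unadjusted p under 0.05 went opposite ways (Fcrls at -0.90 ± 0.20, Sall1 at 0.42 ± 0.10). The sums of 8 glioma and oligodendrocyte precursor markers overlapped, at 60717 to 65478 in mutIDH1 and 62405 to 62497 in wtIDH1. Among them Sox2, a stem cell transcription factor, was higher in mutIDH1 by 0.99 ± 0.08 (limma adjusted p = 0.0169). At an unadjusted limma p under 0.05, 3 of the 8 were higher (Sox2, Olig2 at 0.64 ± 0.17 and Pdgfra at 0.37 ± 0.12). Olig1, the brightest, was lower (-0.32 ± 0.10), so single genes differed where the sums did not. Red blood cell markers (5 of 8 measured) summed to 14610 to 34934 in mutIDH1 and 47584 to 58816 in wtIDH1, and ependymal and choroid plexus markers (6 of 8) to 7477 to 10182 and 1895 to 5797, each with 0 calls by limma (3 and 1 at an unadjusted p under 0.05). Oligodendrocyte sums overlapped, as did those of T and B cells, where Cd4, Cd2 and Ms4a1 lay at or under background throughout. Of all genes tested by limma, 0.899% were called lower and 0.449% higher, and at an unadjusted p under 0.05 these shares were 7.25% and 7.11%. The marker sums include background and are led by each list's brightest genes.

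Genes that act with annexins in membrane repair had 0 calls by limma among 11 measured (median -0.10). At an unadjusted p under 0.05, 2 were lower and 0 higher, against 7.25% and 7.11% of all genes. Cav1, the coat protein of caveolae, read 11.72 and 12.15 in wtIDH1 and 10.70, 10.33 and 10.83 in mutIDH1. Its difference of -1.32 ± 0.19 just missed the threshold (adjusted p = 0.0509). It passed with the dimmest 50% of the probes left out (0.0390), with normexp (0.0313) and with trended and robust moderation (0.00660). Leaving out single mutIDH1 samples gave limma adjusted p from 0.138 to 0.193 for Cav1, so it did not pass. Cav1 also missed with sex as a second term (0.105), with cyclic loess (0.0638) and with each probe as its own row (0.0527). Without wtIDH1 sample 1 and 2 the difference was -1.53 and -1.11, each with 1 wtIDH1 sample left. Dysf, dysferlin, the calcium sensor of membrane patches, stood at -0.67 ± 0.17 (adjusted p = 0.159). Ahnak, the giant scaffold bound by the complex of annexin A2 and S100a10, was at 8.51 and 9.80 in the wtIDH1 samples and at 8.50, 8.72 and 8.61 in the mutIDH1 samples, so that wtIDH1 sample 1 sat among the mutIDH1 samples. Its difference of -0.55 ± 0.37 turned to 0.10 without wtIDH1 sample 2, and was -1.19 without wtIDH1 sample 1, each with 1 wtIDH1 sample left. The calpains Capn1 and Capn2, proteases of the repair response, were at -0.17 ± 0.11 and 0.02 ± 0.19.

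Phosphatidylserine, the lipid that annexin A5 binds, is exposed by scramblases and read by bridging proteins and receptors of phagocytes. Of 13 measured genes of that process 0 passed by limma, and the median was -0.07. At an unadjusted p under 0.05, 3 were lower and 2 higher, against 7.25% and 7.11% of all genes. Axl, a receptor for bridged phosphatidylserine, stood at -0.86 ± 0.18 (adjusted p = 0.109) and Mfge8, a bridging protein, at -0.71 ± 0.15 (adjusted p = 0.110). Both passed with trended and robust moderation (0.0377 and 0.0453). Leaving out single mutIDH1 samples gave limma adjusted p from 0.208 to 0.334 for Axl and from 0.227 to 0.349 for Mfge8. With sex as a second term neither passed (0.0681 and 0.142). Without wtIDH1 sample 1 and 2, Mfge8 stood at -0.95 and -0.47, each with 1 wtIDH1 sample left. Pros1, protein S, stood at -0.44 ± 0.17 (adjusted p = 0.335). On the other side were Xkr8, a scramblase of dying cells, at 0.44 ± 0.09 (adjusted p = 0.0945) and Gas6, the ligand of Axl, at 0.26 ± 0.07 (adjusted p = 0.193).

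**Figure D4:**
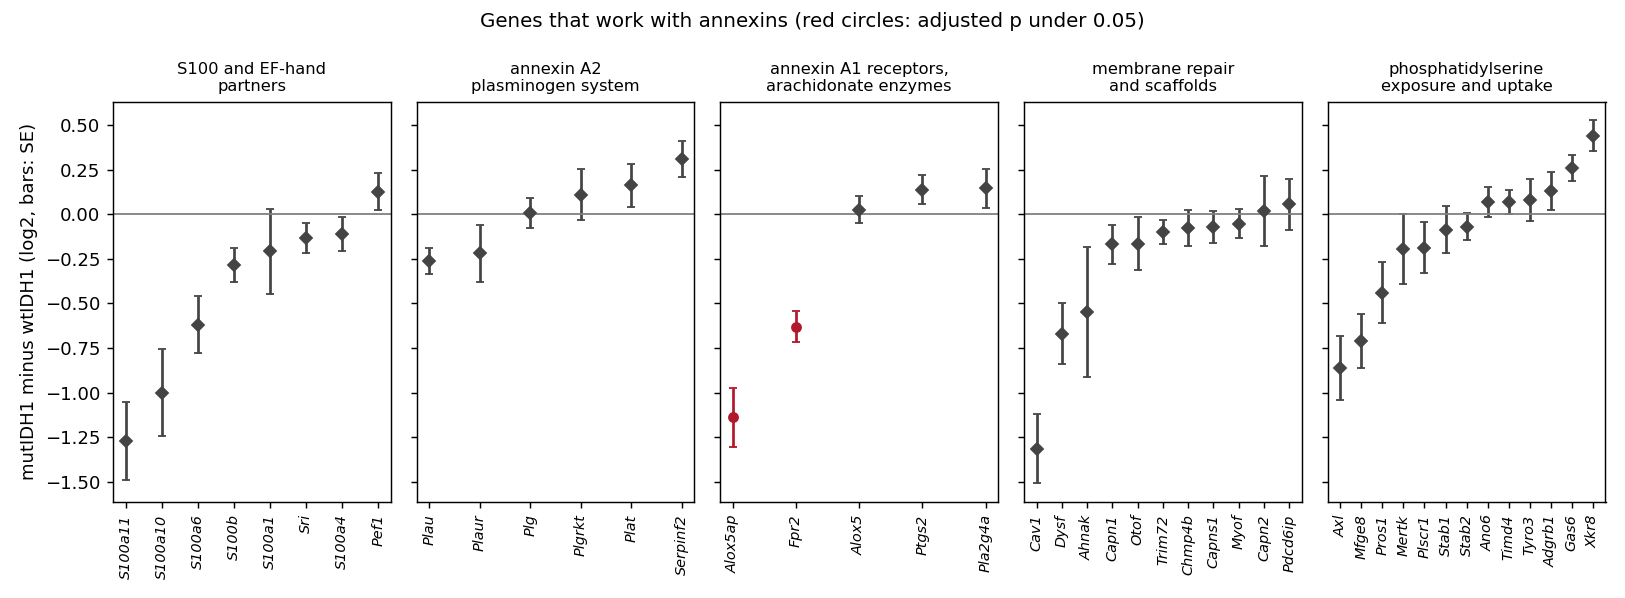
Difference in log2 signal, mutIDH1 minus wtIDH1 (y axis, bars show the SE from limma), for the measured genes of 5 lists of annexin partners and related processes. Red circles mark the 2 genes that passed the test, Alox5ap and Fpr2, and grey diamonds the others.

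The genes whose pattern over the 5 samples was most like that of Anxa2, by the root mean square difference of log2 signals centred on each gene's mean, were Emp1 (0.10), Clec4n (0.11) and Pcolce (0.12). Emp1, an epithelial membrane protein, read 12.46 and 12.37 in the wtIDH1 samples and 11.03, 10.79 and 10.80 in the mutIDH1 samples. Clec4n, the fungal receptor dectin-2 of myeloid cells, read 8.85 and 9.09 against 7.56, 7.37 and 7.49. Pcolce, an enhancer of procollagen processing, read 9.25 and 9.29 against 8.14, 7.84 and 8.02. They were selected from all tested genes for this likeness, which is a description of 5 samples.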

How the data were processed

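RNA of 5 whole gliomas was read on Illumina BeadArrays; groups and sample numbers came from the sample titles. The deposited log2 signals of 45281 probes (6.91 to 15.06) share 1 distribution across arrays, as after quantile normalization. The authors worked with limma, per the submitters' processing notes; its version, background step and normalization are not given in the sources used here. A non-normalized table was not used, because its 10 columns of per-sample values match no single sample's labels.

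Of the probes, 34885 had 1 gene symbol in the platform annotation, 18 several and 10378 none; 34807 were updated through RefSeq (GRCm38.p6). The dimmest 20% by mean (under 7.23) were left out, and the brightest probe stood for each of 16917 genes. Groups were compared with limma 3.58.1 in R 4.3.3 (lmFit, eBayes, 2-sided, 3 residual and 2.50 prior degrees of freedom), with Benjamini-Hochberg adjustment. The background level is the mode of all signals (7.24) plus 3 times the spread below it (0.0887). The fit was tested on simulated data. The members, lists and tests were chosen with earlier results of these data known; the naming rule takes all 9 annexins, the measured genes of the fixed lists and the 3 genes most like a called annexin. Sex for the covariate was read from Xist.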

Additional observations from a re-analysis of the deposited data

How the results depend on the processing

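Over 14 alternatives the difference of Anxa2 kept its sign, from -1.60 to -0.93. The directions of Anxa1, Anxa3, Anxa4, Anxa5, Anxa6, Anxa8 and Anxa11 did not change in any that could be run. Not all of these could change a difference. Changing the filter on dim probes, trended and robust moderation, and single probes leave a gene's main difference as it was (-1.50 for Anxa2). The replicate block gives the same difference as leaving out mutIDH1 sample 3 (-1.52 for Anxa2), since no wtIDH1 sample has that number. Leaving out single samples gave -1.60 to -1.38 for Anxa2, 0 to 3 annexins called, 0 to 479 genes called in all (0 to 234 lower in mutIDH1; 0 without mutIDH1 sample 2 or 3, where 1747 and 1849 had an unadjusted p under 0.05), 0 to 1 in the annexin A1 receptor list, 0 to 2 in the membrane repair list and 0 to 1 in the phosphatidylserine list. The upper ends of these counts came from fits without a wtIDH1 sample. Such fits leave 1 wtIDH1 sample, so their calls hold no spread between wtIDH1 tumours. With sex as a covariate Anxa2 was -1.47 and 0 annexins, 59 genes (49 lower) and 0 of the annexin A1 receptor list passed. Trended and robust moderation called 363 genes (253 lower), 1 S100 partner, 1 membrane repair gene and 2 phosphatidylserine genes. Normexp called 1 S100 partner and 1 membrane repair gene. Leaving out the dimmest 50% of the probes called 1 membrane repair gene and 1 gene of the annexin A1 receptor list, and the mean of probes, cyclic loess and single probes each called 1 of the latter. The sign of Anxa7 turned with sex as a covariate (0.020), with the replicate block (0.0031) and without mutIDH1 sample 2 (0.065), mutIDH1 sample 3 (0.0031) or wtIDH1 sample 1 (0.024); leaving out single samples it ran from -0.10 to 0.065. The cause of these changes was not tested.

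The titles share numbers 1 and 2 between the groups, but nothing says that a number marks a shared animal or batch. The deviations of same-numbered samples from their group means correlated at -0.26 and 0.11, and those of the other pairings from -0.41 to 0.41. With 2 wtIDH1 samples, their deviations mirror each other. These correlations therefore cannot show whether numbers mark pairs. With the replicate block, which leaves 1 residual degree of freedom, Anxa2 was -1.52 (adjusted p = 0.398), and 0 genes were called over all (0 lower, with 1562 at an unadjusted p under 0.05), 0 among the annexins and 0 in the annexin A1 receptor list. The planned correction with negative controls (neqc) was not run, since it needs the non-normalized table, and Anxa8 has no value with the dimmest 50% of the probes left out. Signal over background limits Anxa1, Anxa7 and Anxa8.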
